A study of Mus musculus with 22 samples.

Results

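Where CREB1 and C/EBP beta sat on the genome was compared in the mouse cell line mpkCCD (clone 11), which comes from the cortical collecting duct of the kidney, after 30 min with 0.1 nM dDAVP. dDAVP is a vasopressin analog selective for the V2 receptor. Chromatin immunoprecipitation followed by sequencing (ChIP-seq) had been run with an antibody against each factor, on 4 CREB1 samples and 2 C/EBP beta samples. Every group had been grown to confluence on permeable supports and kept in medium without serum and hormones before treatment, and all cells were between passage 6 and passage 12. An input library of 1 dDAVP experiment served both antibodies. The vehicle groups, again 4 and 2 samples, are used below mainly to say whether a site was also listed without dDAVP. The line is a single clone, and peaks do not measure expression, so its cell type was not checked against marker levels.

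The members were the 406 peaks of the CREB1 dDAVP list and the 2401 peaks of the C/EBP beta dDAVP list, 2807 of the 3801 regions in the series, and the genes beside them. A gene counted as near a factor when a peak centre lay no more than 5000 bp from the nearer end of a protein-coding gene, and peaks counted as overlapping from 1 shared bp. Of 21631 protein-coding genes, 577 were near CREB1 (2.67%) and 1084 were near C/EBP beta (5.01%). CREB1 alone was near 505 genes (2.33%), C/EBP beta alone was near 1012 (4.68%) and both factors were near 72 (0.333%). These 1589 genes are 1589 of the 2032 genes near any peak of the series. Each factor had 1 list per treatment with no values of single samples, and no source used here says how samples were combined, so no value below has an error over cultures and no p-value is given. The 95% Wilson intervals cover the counting of peaks, genes or windows alone, and the depth behind either list is unknown. The lists also differed in length, in the number of samples and in how they may have been filtered, which cannot be told apart from a difference between the factors. A missing peak means that none was called, not that the DNA was free of the factor.

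CREB1 is the activator that protein kinase A phosphorylates when cAMP rises, and the V2 receptor of collecting duct cells raises cAMP. It binds the cAMP response element (CRE), whose full palindrome and shorter single motif both occur in promoters of housekeeping and immediate early genes. C/EBP beta is a leucine zipper factor of acute phase, differentiation and stress responses. It binds a palindrome of its own as a dimer, and it can pair with ATF4 or CHOP, leucine zipper factors of the stress response, on a composite element.

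Promoter stretches of 10 genes show the motifs searched and where they lay under peaks of both factors or of 1. All are from RefSeq promoter windows on mm10 (GRCm38), each reaching from 250 bases before to 50 bases after an annotated start, and are printed 5′ to 3′ on the strand of the gene, at most 75 bases to either side of the peak centres. Capitals mark the short CRE motif TGACG, the full CRE TGACGTCA, the C/EBP core TTGCNNAA, which includes the full palindrome TTGCGCAA, and the C/EBP-ATF composite TGATGCAA, on either strand. The first 5 hold the centres of both factors, whose peaks overlapped there. Man1b1 (an enzyme that trims mannose from glycoproteins, chr2:25332535-25332772, plus strand), Qtrt2 (a subunit of the tRNA-guanine transglycosylase, chr16:43889647-43889795, minus), Usp36 (a nucleolar deubiquitinase, chr11:118290268-118290451, minus), Dnajb9 (a co-chaperone of the endoplasmic reticulum, chr12:44210138-44210318, minus) and Ddx49 (an RNA helicase, chr8:70302447-70302603, minus) read as follows.
Man1b1: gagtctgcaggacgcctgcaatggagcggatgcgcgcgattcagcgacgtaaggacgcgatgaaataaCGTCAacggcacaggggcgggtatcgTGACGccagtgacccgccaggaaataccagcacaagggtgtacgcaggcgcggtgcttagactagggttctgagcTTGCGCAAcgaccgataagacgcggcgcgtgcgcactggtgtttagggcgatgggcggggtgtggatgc
Qtrt2: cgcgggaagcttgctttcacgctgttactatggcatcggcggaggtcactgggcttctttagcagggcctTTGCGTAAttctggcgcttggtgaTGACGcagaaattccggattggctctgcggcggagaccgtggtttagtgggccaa
Usp36: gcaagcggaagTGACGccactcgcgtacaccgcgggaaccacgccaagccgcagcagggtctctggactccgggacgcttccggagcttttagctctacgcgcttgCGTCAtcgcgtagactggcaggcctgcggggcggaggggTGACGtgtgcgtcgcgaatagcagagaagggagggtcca
Dnajb9: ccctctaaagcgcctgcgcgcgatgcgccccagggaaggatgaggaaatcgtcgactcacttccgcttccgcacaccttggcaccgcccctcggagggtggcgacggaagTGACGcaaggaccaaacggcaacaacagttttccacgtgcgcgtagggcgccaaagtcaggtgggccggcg
Ddx49: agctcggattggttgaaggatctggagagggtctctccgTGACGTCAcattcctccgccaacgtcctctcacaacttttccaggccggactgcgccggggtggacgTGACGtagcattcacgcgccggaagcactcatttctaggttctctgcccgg
All 5 hold TGACG or its complement, CGTCA. In Man1b1 the CREB1 centre lay 5 bp from CGTCA and the C/EBP beta centre lay 9 bp from TTGCGCAA, with 89 bp between the centres. In Qtrt2 the CREB1 centre lay 10 bp and the C/EBP beta centre 2 bp from TTGCGTAA. Usp36, Dnajb9 and Ddx49 held no C/EBP core in their windows, and the C/EBP beta centre of Usp36 fell on CGTCA, at a distance of 0 bp. That CGTCA is part of TTGCGTCA, and the TGACG marked in Dnajb9 is part of its complement, TGACGCAA. These letters differ from the composite TGATGCAA by a single base and were not among the motifs searched.

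The next stretches come from genes near 1 factor alone. H4c1 (a histone H4 gene, chr13:23761340-23761490, minus) and Ranbp2 (a nuclear pore protein, chr10:58446717-58446867, plus) stood at the widest CREB1 peaks. Abhd11 (a mitochondrial hydrolase, chr5:135008993-135009143, plus) and Rpia (ribose 5-phosphate isomerase, chr6:70792199-70792349, minus) stood at the C/EBP beta peaks ranked 3 and 7 by authors' score near such genes. Rbm39, which ranked ahead of Rpia, held none of these motifs in the same stretch. The peaks of Cotl1, Btbd19, Gm31513 and Ptpn12 also ranked ahead of Rpia, but no promoter window of those genes held the peak centre. Iars (isoleucyl-tRNA synthetase, chr13:49682069-49682159, plus) was chosen after its values were seen, because its C/EBP beta centre lay 4 bp from the complement of the composite, TTGCATCA.
H4c1: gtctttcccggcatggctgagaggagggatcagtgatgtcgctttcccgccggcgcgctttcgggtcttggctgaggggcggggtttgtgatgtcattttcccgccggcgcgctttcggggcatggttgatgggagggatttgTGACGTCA
Ranbp2: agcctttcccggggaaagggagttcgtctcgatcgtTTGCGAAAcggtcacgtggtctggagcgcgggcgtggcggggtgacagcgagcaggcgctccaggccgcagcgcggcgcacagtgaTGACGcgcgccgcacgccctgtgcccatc
Abhd11: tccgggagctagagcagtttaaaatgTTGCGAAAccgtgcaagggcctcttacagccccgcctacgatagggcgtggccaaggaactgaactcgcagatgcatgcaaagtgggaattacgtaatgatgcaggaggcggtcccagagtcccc
Rpia: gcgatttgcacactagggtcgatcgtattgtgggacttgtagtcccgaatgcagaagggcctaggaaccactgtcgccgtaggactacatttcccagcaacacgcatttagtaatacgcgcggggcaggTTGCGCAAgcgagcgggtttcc
Iars: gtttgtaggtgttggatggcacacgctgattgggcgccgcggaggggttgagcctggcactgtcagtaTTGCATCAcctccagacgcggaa
The full CRE of H4c1 lay 72 bp from the CREB1 centre, at the edge of the stretch. In Ranbp2 the CREB1 centre lay 49 bp from TGACG and 36 bp from a C/EBP core, TTGCGAAA, without a listed C/EBP beta peak nearby. The cores of Abhd11 and Rpia lay 46 and 58 bp from the C/EBP beta centre.

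CREB1 peaks stood on promoters, and most C/EBP beta peaks stood elsewhere. The median CREB1 centre was 46 bp from the nearest gene end and the median C/EBP beta centre 11685 bp. Within 100 bp of a gene end lay 279 of 404 placed CREB1 peaks (69.1%, 64.4 to 73.4) and 157 of 2401 C/EBP beta peaks (6.54%, 5.62 to 7.60). Beyond 50000 bp lay 0 CREB1 peaks (upper bound 0.942%) and 510 C/EBP beta peaks (21.2%, 19.7 to 22.9). Farther than 1000 bp from any end but inside a gene stood 32 CREB1 peaks (7.92%) and 965 C/EBP beta peaks (40.2%), and 960 further C/EBP beta peaks (40.0%) lay between genes, against 16 CREB1 peaks (3.96%).

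**Figure D1:**
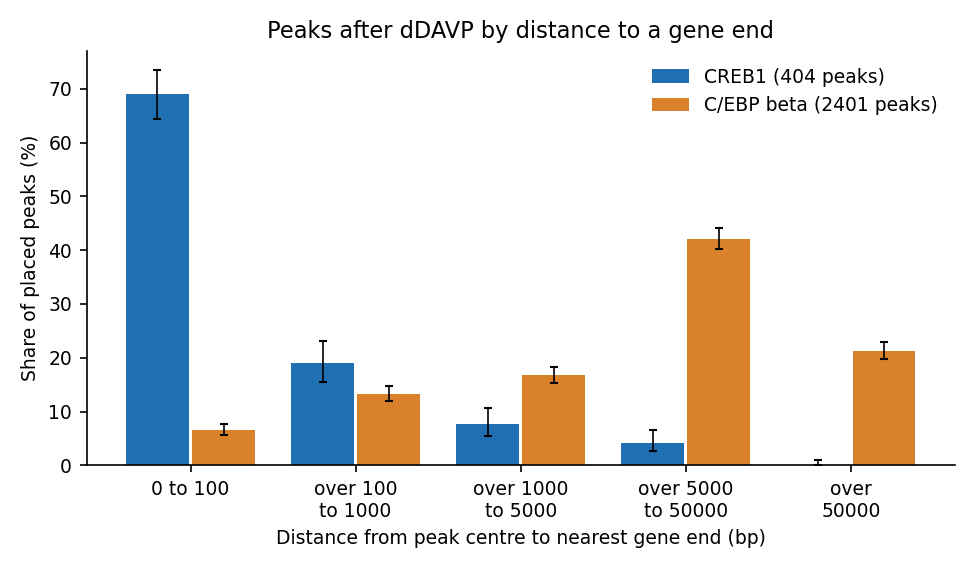
Share of peaks in percent (vertical axis) by distance in bp from the peak centre to the nearest end of a protein-coding gene (horizontal axis) for CREB1 and C/EBP beta after dDAVP; bars are shares and lines are 95% Wilson intervals. CREB1 fills the first class with 69.1% of its peaks, while C/EBP beta has its highest share, 42.1%, between 5000 and 50000 bp.

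At gene ends, both factors stood mostly at the start of the gene. Of the 356 CREB1 peaks within 1000 bp of an end, the start was the nearer end for 302 and the far end for 1, with the strand unknown for 53 (99.7% of known at the start, 98.2 to 99.9). Of the 476 C/EBP beta peaks there, the start was nearer for 352 and the far end for 30, with 94 unknown (92.1%, 89.0 to 94.4). Among peaks within 500 bp of an annotated start, the median CREB1 centre was at -29 bp (quartiles -63 and -2, 327 peaks), where negative is upstream. The median C/EBP beta centre was at -96 bp (quartiles -218 and -7, 297 peaks). CREB1 peaks also served several gene ends at once: 101 of 356 (28.4%, 23.9 to 33.3) lay within 1000 bp of the ends of at least 2 genes, as Nbr1 and Brca1 do, against 71 of 476 C/EBP beta peaks (14.9%, 12.0 to 18.4). Genes with another gene end within 5000 bp made up 78.8% of those near CREB1 alone, 80.6% of those near both, 59.4% of those near C/EBP beta alone and 46.5% of all genes, so that 1 peak often counted for several genes.

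The peaks of both factors overlapped at 20 sites, 1 peak of each list per site. That is 4.93% of the CREB1 peaks (3.21 to 7.49) and 0.833% of the C/EBP beta peaks (0.540 to 1.28). The overlap ran from 77 to 335 bp (median 201.5 bp), and the centres were 6 to 186 bp apart (median 53 bp), within 50 bp at 10 sites. Of the 20 sites, 16 lay within 1000 bp of a gene end and 19 within 5000 bp. The remaining site lay inside Tiam1, an activator of Rac, 47294 bp from its nearest end. C/EBP beta peaks at gene ends overlapped a CREB1 peak in 16 of 476 cases (3.36%), and those farther away in 4 of 1925 (0.208%). In the CREB1 list, 80.0% of the overlapping peaks and 88.5% of the other placed peaks lay within 1000 bp of an end. The contrast among C/EBP beta peaks therefore cannot be told apart from where CREB1 peaks stood. Around the CREB1 peaks, 28 had a C/EBP beta centre within 1000 bp, 36 within 5000 bp and 99 within 50000 bp, and the median CREB1 peak was 147 kb from the nearest C/EBP beta centre.

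The C/EBP beta peaks at these sites had a higher median authors' score than the rest. It was 278.5, against 196 in the other 2381 peaks and 213.5 in the other peaks within 1000 bp of a gene end. Above the median of the list, 197, were 12 of the 20 and 1182 of the other 2381, and the difference was not tested. The score is the authors' own value per peak, listed without a stated scale, from 30 to 3880. Man1b1 had the highest of the 20, 1474, with the CREB1 peak at chr2:25332449-25332772 and the C/EBP beta peak at chr2:25332522-25332876. Tomm6, a subunit of the mitochondrial import complex, had a score of 1396 and centres 8 bp apart (C/EBP beta peak chr17:47687893-47688246), in a stretch near 5 genes, with Frs3, Prickle4, Usp49 and Gm20517. Csnk1g2, a casein kinase 1, had 1096 (chr10:80621948-80622308), Gtf2f1, a subunit of the general transcription factor TFIIF, had 902 (chr17:57011357-57011739), and Qtrt2 had 883 (chr16:43889541-43889900), which is also near Ccdc191. Ssu72, a phosphatase of RNA polymerase II, had 535 and Abcf2, an ATP-binding cassette protein, had 485. These 7 sites held the best scores of the 20.

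Lower scores marked the other sites. Rps6kb2, an S6 kinase gene near Carns1, had 372, with centres 14 bp apart. Rpl41, the gene of a cytosolic ribosomal protein near Zc3h10, had 323, with centres 171 bp apart. Usp36 had 234, Ap5s1 (a subunit of the AP-5 adaptor) 220, Gm40363 191, Dnajb9 180 and the site between Fbxw2 and Rabepk 179. Ddx49, which shares its site with the coatomer gene Cope, had 131. Cdnf and Hspa14, a divergent pair, had 105, Pi4k2a, a phosphatidylinositol kinase near Morn4, had 86, and both Dcaf11 and Oaz1, the ornithine decarboxylase antizyme, had 79. The CREB1 peak of the site was also in the CREB1 vehicle list at 19 of the 20 sites, all but Gm40363. The C/EBP beta peak was also in the C/EBP beta vehicle list at 1 site, Man1b1. In the whole lists these shares were 98.0% of CREB1 peaks (398 of 406) and 8.70% of C/EBP beta peaks (209 of 2401), so the overlapping sites were close to their lists in this respect.

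**Figure D2:**
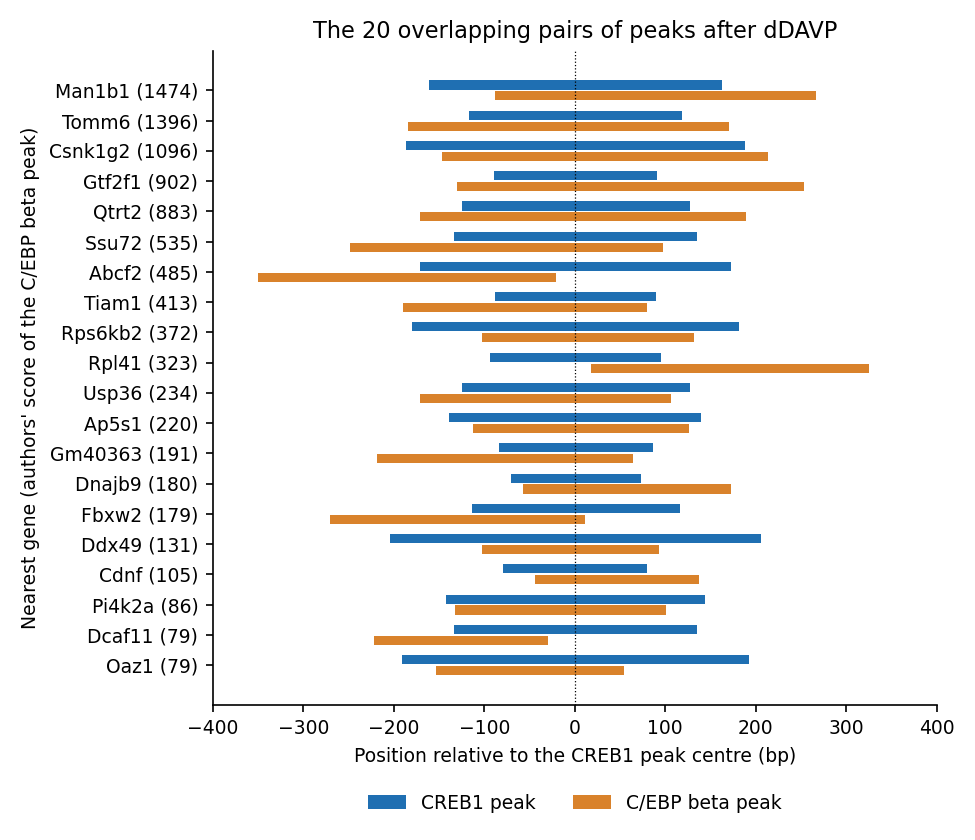
Position in bp relative to the CREB1 peak centre (horizontal axis) of the CREB1 peak and the C/EBP beta peak at each of the 20 overlapping sites, named by the nearest gene with the authors' C/EBP beta score in brackets and ordered by that score (vertical axis). The centres are 6 bp apart at Ap5s1 and Ddx49 and 186 bp apart at Abcf2, where the C/EBP beta peak lies wholly to 1 side of the CREB1 centre.

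The 72 genes near both factors fell into 50 loci, since neighbouring genes shared peaks. They were 12.5% of the genes near CREB1 (10.0 to 15.4) and 6.64% of those near C/EBP beta (5.31 to 8.28). In 30 genes, from 19 loci, the peaks overlapped, and those genes are named above. In the other 42 genes, from 31 loci, the centres were 348 to 52548 bp apart (median 1886.5 bp): within 1000 bp in 15, from there to 5000 bp in 11, and farther in 16. Both peaks were at the same end of the gene in 27 of the 42 and at opposite ends in 15. The CREB1 peak was the closer in 36, with a median distance to the gene end of 59.5 bp, against 2019 bp for C/EBP beta.

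Foxo3, a forkhead factor of stress resistance, had the shortest distance among these, 348 bp (CREB1 chr10:42277688-42277916, C/EBP beta chr10:42277942-42278358, score 921). Elovl5, a fatty acid elongase, followed at 388 bp, with CREB1 21 bp and C/EBP beta 367 bp from its start. Exosc9, an exosome subunit, had 667 bp. Fau and Mrpl49, which encode a ubiquitin-like ribosomal protein and a mitochondrial ribosomal protein, shared their 2 peaks, 840 bp apart, with Tm7sf2 and Znhit2. Larp7, which binds the 7SK RNA, shared its peaks with Zgrf1, 865 bp apart. A cluster on chromosome 17 had 886 bp at 9030025P20Rik, Gm3417, Tcte3 and Ermard and 901 bp at Gm3435 and Gm3448. These are near-identical copies or neighbours of such copies, so which copy the reads came from is uncertain. At longer distances stood Eif4a1, a translation initiation helicase, with 1004 bp, and Eprs, the glutamyl-prolyl-tRNA synthetase, with 1082 bp.

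The genes with the longest distances held 1 factor at each end. The rule fixes this, since centres within 5000 bp of the same end cannot lie so far apart. Rprd1b, a regulator of RNA polymerase II, had centres 52548 bp apart, Ift172, a ciliary transport gene, 36418 bp, Mfn2, which fuses mitochondria, 36030 bp, Pfas, a purine synthesis enzyme, 27379 bp, and Ccnt1, the cyclin of P-TEFb, 26572 bp. CREB1 lay 11, 275, 95, 6 and 1 bp from the end it was near in these genes, and C/EBP beta 2805, 1419, 4802, 4614 and 2473 bp from the other. Among all 72 genes, 71 had a CREB1 peak that was also listed after vehicle, and 5 had such a C/EBP beta peak: Man1b1, Irf2bpl, Ddx19b, Rpusd2 and Rprd1b. Those 5 were also among the 13 genes near both factors in the vehicle lists.

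**Figure D3:**
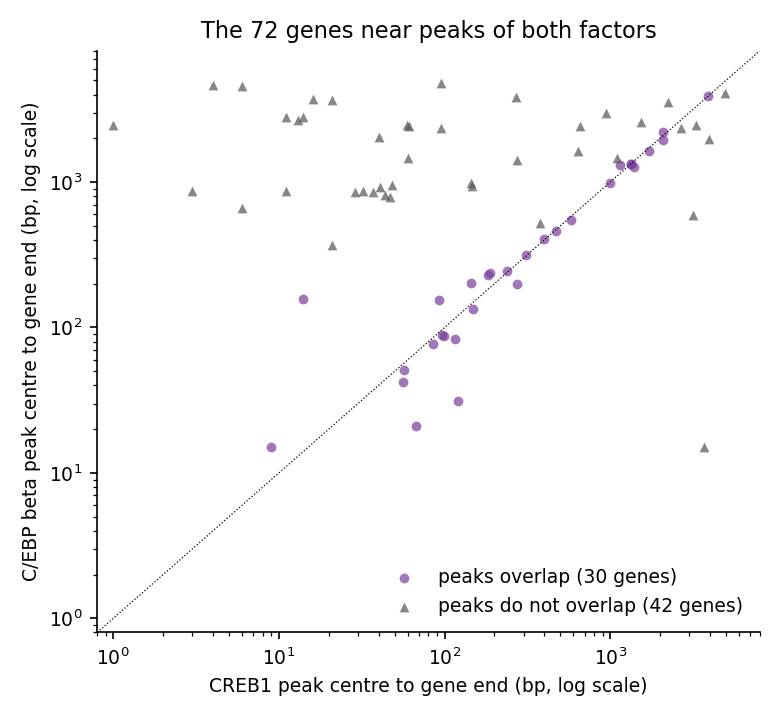
Distance in bp from the CREB1 peak centre (horizontal axis, log scale) and from the C/EBP beta peak centre (vertical axis, log scale) to the gene end for the 72 genes near both factors; circles are the 30 genes with overlapping peaks and triangles the 42 others, and the dotted line marks equal distances. Most triangles lie above the line, 36 of 42, with C/EBP beta farther from the end.

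The genes near 1 factor alone differed in where that factor stood. The median distance was 66 bp in the 505 genes near CREB1 alone and 1011.5 bp in the 1012 genes near C/EBP beta alone, and 79.2% and 49.8% of them had the peak within 1000 bp. Where the strand was known, the peak was nearer to the start in 372 of 432 genes for CREB1 (86.1%, 82.5 to 89.1) and in 600 of 805 for C/EBP beta (74.5%, 71.4 to 77.4). The median authors' score of the nearest C/EBP beta peak was 209 in genes near C/EBP beta alone and 222 in genes near both.

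Among the 10 widest CREB1 peaks of genes near CREB1 alone, the first, 452 bp at chr13:23761190-23761641, served the histone genes H4c1, H3c1, H1f1 and H4c2. Ranbp2 had 439 bp, Rfx1, an X-box binding factor, 436 bp, Fbxw7, a ubiquitin ligase subunit, 433 bp, and Esyt2, a membrane tether, 433 bp. Osbp, which binds oxysterol, had 425 bp, the site of Klc4, Mrpl2 and Cul7 416 bp, that of Nolc1 and Pprc1 408 bp, Psme3 402 bp and that of Nbr1 and Brca1 402 bp. All 10 were also in the vehicle list. The best C/EBP beta scores near genes of C/EBP beta alone were at Cotl1, which binds actin, with 3259 (chr8:119840422-119840913, 88 bp from the end), at Btbd19 and Tctex1d4 with 2914, and at Abhd11 and at Rbm39, a splicing factor, each with 2735. Gm31513 had 2507, Ptpn12 2473, Rpia 2438, Rad23b, which takes part in DNA repair, 2352, Gatb 2350 and Slc17a5, the sialic acid transporter of lysosomes, 2348. These 10 were also in the C/EBP beta vehicle list, which held 8.70% of the C/EBP beta list.

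Genes that respond to vasopressin or cAMP were split between the factors or had neither. Aqp2, the vasopressin-regulated water channel, was near C/EBP beta alone. Its peak at chr15:99584846-99585098 (score 227) lay 427 bp past the far end of the gene, not at the start, and the nearest CREB1 peak was 504129 bp away. Fos, the immediate early gene that CREB1 is known for, was near CREB1 alone, with the peak at chr12:85473633-85473882, 133 bp from its start. Per1, a clock gene with a CRE, was near C/EBP beta alone, 272 bp from its start, with the nearest CREB1 peak of the dDAVP list 86642 bp away. The CREB1 vehicle list did hold a peak 102 bp from an end of Per1. Scnn1a, a subunit gene of the sodium channel ENaC, had a C/EBP beta peak 4798 bp away, just inside the limit (score 179). Creb1 and Crem, which encode CREB1 and its relative, Nr4a1, Sgk1 and Avpr2, the V2 receptor gene, were near neither. Avpr2 is on X, where the CREB1 list held 0 peaks.

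Among 22 stress regulators of the ATF4 and CHOP pathway, 11 were near C/EBP beta (50.0%, against 5.01% of all genes) and 1 was near CREB1 (4.55%, against 2.67%). Trib3, an inhibitory pseudokinase, had its C/EBP beta centre 8 bp from the start (score 423), Ppp1r15b 47 bp from an end (460), Trib1 84 bp (1714), Chac1, which degrades glutathione, 194 bp (991), Ddit3, which encodes CHOP, 291 bp (485) and Vldlr 314 bp (132). The gene near CREB1 was Ppp1r15a, the stress-induced phosphatase subunit, 24 bp from its start, at a peak that was not in the vehicle list. With the upper 50% of C/EBP beta scores, 7 of the 22 were near C/EBP beta. Of the 19 genes of the C/EBP family and its ATF4 partners, 7 were near C/EBP beta (36.8%) and 0 near CREB1. These were Atf3 at 31 bp, Cebpb itself at 259 bp from its far end, inside the gene, Ddit3, Atf7 at 369 bp, Atf4 at 958 bp, Nfil3 at 2330 bp and Atf5 at 2432 bp, and 4 of the 19 were left with the upper 50% of scores.

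Genes of amino acid supply, many of which ATF4 is known to induce, were more often near C/EBP beta than all genes were (5.01%). Of 20 aminoacyl-tRNA synthetases, 10 were near C/EBP beta (50.0%) and 2 were near CREB1 (10.0%). C/EBP beta stood 14 bp from the ends of Iars (score 1138) and Nars (201), 28 bp from Gars, 31 bp from Cars, 90 bp from Mars1, 170 bp from Yars, and farther from Qars, Wars and Sars. CREB1 stood alone at Aars, 48 bp from its start, and with C/EBP beta at Eprs. In amino acid synthesis and transport, 7 of 27 genes were near C/EBP beta (25.9%) and 0 near CREB1. They were Aldh18a1 and Pycr1 of proline synthesis at 1 and 92 bp, the transporters Slc1a4 at 4 bp and Slc38a7 at 1097 bp, Got1 at 66 bp (score 1313), Psat1 of serine synthesis at 137 bp, and Shmt2 at 510 bp. These counts fell without peaks of lower score: with the upper 50% of C/EBP beta scores, 3 of the 20 synthetases and 4 of the 27 genes of synthesis and transport were near C/EBP beta. Over all genes, the same cut took those near C/EBP beta alone from 1012 to 549 and those near both from 72 to 42.

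The clock, acute phase, heme and epithelial lists had a few genes near C/EBP beta and 0 near CREB1. Of 22 clock genes, 6 were near C/EBP beta (27.3%) and 0 near CREB1: Ciart, Per1, Cry2, Bhlhe40, Nfil3 and Per2. Of 28 acute phase and inflammatory genes, 5 were (17.9%) and 0: Ptgs2 at 55 bp (score 819), C3 at 61 bp, Il6ra at 149 bp, Lcn2 at 188 bp and Il6 at 1717 bp. Of 25 heme and oxidative stress genes, 5 were (20.0%) and 0, with Hmox1 at 70 bp (score 1408) and Nfe2l2 at 1230 bp (2334) among them. In the collecting duct list, 4 of 25 were (16%) and 0: Aqp2, Fxyd4 at 1569 bp, the potassium channel gene Kcnj1 at 2712 bp (1423) and Scnn1a. Of 26 epithelial transcription factors, 4 were (15.4%) and 0: Ehf at 16 bp, Grhl2 at 249 bp, Emx2 and Tfcp2l1. Of 31 claudin and tight junction genes, Cldn8 and Cldn3 were (6.45%, 1.79 to 20.7) and 0, and that share is near the 5.01% of all genes. At 1000 bp, the C/EBP beta counts fell to 3 for the clock and heme lists, to 1 for the collecting duct list and to 2 for the epithelial factors. Over all genes, those near C/EBP beta alone fell from 1012 to 506 at that distance and those near both from 72 to 36. With the upper 50% of C/EBP beta scores, the acute phase count became 2. With 0 genes of CREB1 in each of these lists, the upper bounds for CREB1 ran from 11.0% to 14.9%, so a CREB1 share at the level of all genes, 2.67%, cannot be told from these.

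The lists of AP-1 genes, CREB targets, histones and replication genes had some genes near each factor and 0 near both. Over all genes, 2.67% were near CREB1, 5.01% near C/EBP beta and 0.333% near both, so 0 shared genes is close to the share of all genes. The CREB1 intervals of the AP-1 (1.19 to 29.8%), CREB target (2.58 to 19.9%) and histone lists (2.21 to 13.6%) include 2.67%. That of the replication list, 6.26 to 29.4%, does not. Of 15 AP-1 and small Maf genes, Maff, Fosl1, Fosl2 and Jdp2 were near C/EBP beta (26.7%) and Fos near CREB1 (6.67%). Of 40 textbook CREB targets and immediate early genes, 9 were near C/EBP beta (22.5%) and 3 near CREB1 (7.5%). The CREB1 ones were Fos, Pcna at 134 bp and Ccna2 at 976 bp, and the C/EBP beta ones included Atf3, Per1, Ier2 at 420 bp, Rgs2 at 437 bp from its far end, Myc at 1724 bp (1088) and Hspa5 at 1823 bp. Of 35 replication and cell cycle genes, 6 were near C/EBP beta (17.1%), with Gins1 at 74 bp and Mcm3 at 152 bp (1650), and 5 near CREB1 (14.3%), with Rfc4 at 29 bp, Mcm5 at 51 bp and Pcna. Of 71 clustered histone genes, 10 were near C/EBP beta (14.1%) and 4 near CREB1 (5.63%). The nearest peaks of the 10 were 5 in number, and the 4 shared the single wide peak described above. Among 29 chaperone and degradation genes of the endoplasmic reticulum, 5 were near C/EBP beta (17.2%) and 3 near CREB1 (10.3%). Herpud1 at 100 bp (699), Atf6 at 132 bp, Hspa5 and Derl2 were near C/EBP beta alone, Dnajb11 at 138 bp and Syvn1 at 4182 bp near CREB1 alone, and Dnajb9 near both. At 1000 bp, the C/EBP beta counts of AP-1, CREB target, replication, histone and chaperone genes became 2, 4, 2, 6 and 3. With the upper 50% of C/EBP beta scores they became 1, 7, 4, 10 and 3. Over all genes, those near C/EBP beta alone went from 1012 to 506 and 549 in these recounts.

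The lists of tRNA modification, nuclear pore and ribosomal protein genes had CREB1 shares above the 2.67% of all genes. Of 52 tRNA modification genes, 11 were near CREB1 (21.2%, 12.2 to 34.0) and 3 near C/EBP beta (5.77%, 1.98 to 15.6). Tyw1 had its CREB1 centre 1 bp from the start, Trmt61a 7 bp, Trmt44 9 bp, Trmt10a 14 bp, Dus4l 45 bp and Trmt2a 97 bp, and Qtrt2 was near both. Of 28 nuclear pore genes, 6 were near CREB1 (21.4%, 10.2 to 39.5): Nup214 at 2 bp, Tpr at 26 bp, Nup133 at 40 bp, Ranbp2 at 60 bp, Nup155 at 76 bp and Nup153 at 202 bp. Nup35, Nup62 and Nup107 were near C/EBP beta (10.7%, 3.71 to 27.2), at 40, 3002 and 4133 bp. Of 80 cytosolic ribosomal protein genes, 9 were near CREB1 (11.2%, 6.03 to 20), with Rpl21 at 8 bp, Rpl41 at 14 bp, Rpl24 at 25 bp and Rpl34 at 31 bp, and 3 near C/EBP beta (3.75%, 1.28 to 10.5), Rpl41 among them. In all 3 lists the intervals of the factors overlap, and the C/EBP beta shares of the tRNA modification and ribosomal lists are near the 5.01% of all genes.

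Further housekeeping lists held genes of each factor, against 2.67% of all genes for CREB1 and 5.01% for C/EBP beta. Of 52 DEAD and DEAH box helicases, 7 were near CREB1 (13.5%), with Ddx10 at 0 bp and Ddx51 at 7 bp, and 6 near C/EBP beta (11.5%), with Dhx33 at 125 bp and Ddx42 at 437 bp, and Ddx49 and Ddx19b were near both. Of 74 general transcription factors and polymerase subunits, 6 and 5 were (8.11% and 6.76%), with Gtf2f1 and Polr2k near both. Of 77 mitochondrial ribosomal genes, 5 and 3 were (6.49% and 3.90%), with Mrpl49 near both. Of 83 respiratory chain genes, 5 and 6 were (6.02% and 7.23%), with Ndufa10 at 9 bp from CREB1 and Sdhd at 6 bp from C/EBP beta. Of 59 Rab genes, 3 and 3 were (5.08% each), with Rab5a at 15 bp from CREB1 and Rab5b at 427 bp from C/EBP beta. Of the 35 genes of the CREB family, its coactivators and protein kinase A, Crebbp was near CREB1, 3467 bp from its far end, and Crebl2 near C/EBP beta, 1622 bp away (2.86% each). The C/EBP beta shares of the Rab, mitochondrial ribosomal and general transcription factor lists are near that of all genes. The marker lists of intercalated cells (8 genes), proximal tubule (6) and fibroblasts (6) had 0 genes near either factor.

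**Figure D4:**
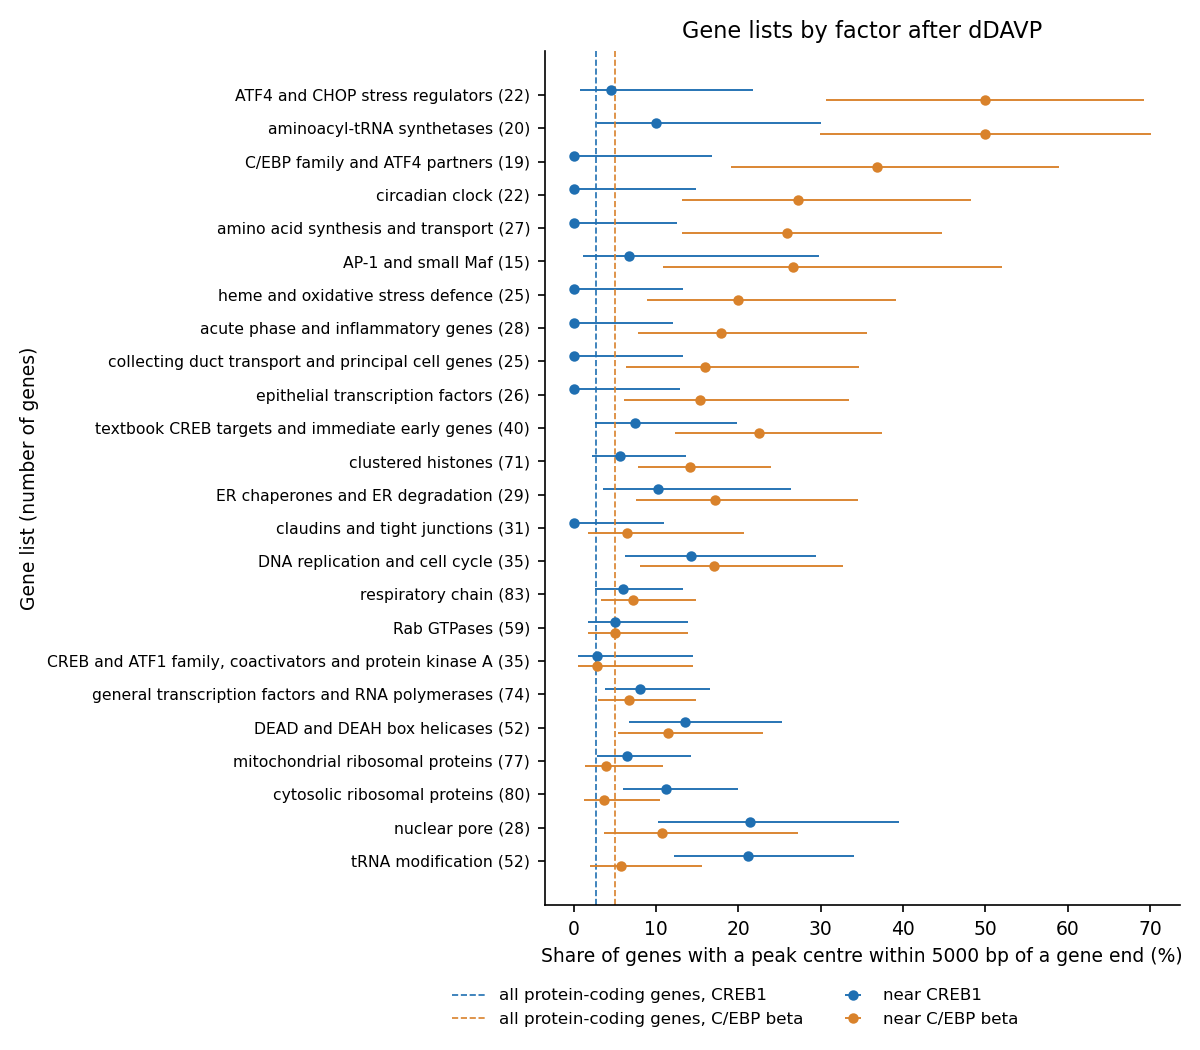
Share in percent of the genes of each list with a peak centre within 5000 bp of a gene end (horizontal axis) for CREB1 and C/EBP beta, for the 24 lists with at least 1 such gene (vertical axis, number of genes in brackets); points are shares, lines are 95% Wilson intervals and dashed lines are the shares of all protein-coding genes, 2.67% and 5.01%. The stress regulators and the tRNA synthetases stand at 50.0% for C/EBP beta, and the tRNA modification and nuclear pore lists have the highest CREB1 shares, 21.2% and 21.4%.

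Absence of CREB1 after dDAVP did not always mean absence from the series. Of the 1012 genes near C/EBP beta alone, 81 (8%) were near a CREB1 peak of the vehicle list, against 1092 of all genes (5.05%). These shares do not compare like with like. The 1092 include genes near CREB1 after dDAVP, which the 1012 leave out by definition, and 98.0% of the CREB1 dDAVP peaks were also in the vehicle list. A share over genes not near CREB1 after dDAVP was not computed. Listed genes among these included Atf4, Cdk2, Ddx42, Derl2, Hspa5, Ier2, Per1, Rab5b, Rpl13 and Tbp. Over peaks, 49 C/EBP beta dDAVP peaks overlapped a CREB1 vehicle peak, and 30 of those overlapped no CREB1 dDAVP peak. With CREB1 peaks of either treatment, 50 CREB1 peaks overlapped a C/EBP beta peak and 153 genes were near both, in place of 20 and 72. That choice was made after the data were seen, as the vehicle list of CREB1 is the longer of its lists.

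Motif shares over all promoter windows differed between the factors. A CREB1 centre fell inside 374 of 21045 RefSeq promoter windows of 300 bases, a C/EBP beta centre inside 219, and both inside 14, from 295, 201 and 11 peaks of a factor, since windows of neighbouring or alternative starts overlap. The short CRE was in 92.8% of the CREB1 windows (89.7 to 95), in 43.8% of the C/EBP beta windows (37.4 to 50.5) and in 23.8% of all windows, and the full CRE in 29.7%, 3.20% and 2.26%. The C/EBP core was in 9.63% of the CREB1 windows (7.03 to 13.0), in 46.1% of the C/EBP beta windows (39.6 to 52.7) and in 10.3% of all. Its full palindrome TTGCGCAA was in 0.802%, 10.0% and 0.223%, and the C/EBP-ATF composite in 0.267%, 6.39% and 0.851%. Windows of the factors were richer in CpG, with a median of 26 CpG for CREB1, 19 for C/EBP beta and 13 for all. Among the 7640 windows with at least 20 CpG, the short CRE was in 36.4%, the full CRE in 3.91% and the C/EBP core in 4.75%.

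The motifs lay near the centres. In windows with the motif, the nearest short CRE was a median of 16 bp from the CREB1 centre and within 50 bp in 91.9%, and the nearest C/EBP core was 13.5 bp from the C/EBP beta centre and within 50 bp in 89.1%. In the reverse pairing, the short CRE was a median of 42.0 bp from the C/EBP beta centre and within 50 bp in 53.1%, and the C/EBP core 106 bp from the CREB1 centre and within 50 bp in 19.4%. C/EBP beta peaks in windows with the C/EBP core had a median authors' score of 396, against 205 without it. With TTGCGCAA the median was 945.5 (22 windows), against 221 without.

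The 14 windows with both centres come from 11 sites. All 14 held the short CRE, 5 to 41 bp from the CREB1 centre, and in 10 of the 14 it was within 50 bp of the C/EBP beta centre as well. The C/EBP core was in 2 of them, those of Man1b1 and Qtrt2, and the composite in 0. These counts cover the searched letters alone. TGACGCAA, a single base from the composite, can be read on either strand at Usp36, Dnajb9, Ap5s1, Oaz1 and the site of Cdnf and Hspa14. The same letters can be read at Esyt2, a gene near CREB1 alone, where their CGTCA lay 7 bp from the CREB1 centre. TGACGCAA was not searched, so its share in other windows is unknown. Counted once per site, the short CRE was at 11 of 11 sites (74.1 to 100%) and the core at 2 of 11 (18.2%, 5.14 to 47.7). In the 205 windows with a C/EBP beta centre and no CREB1 centre, the core was in 48.3% (41.5 to 55.1) and the short CRE in 40.0% (33.5 to 46.8). The 11 sites hold a CREB1 centre by construction, and in the 360 windows with a CREB1 centre and no C/EBP beta centre the short CRE was in 92.5% (89.3 to 94.8) and the core in 9.44% (6.84 to 12.9). Motif counts over all windows of a gene class, whether or not a peak lay in the window, ran the same way for CRE: the short CRE was in 67.9% for CREB1 alone, 69.9% for both and 31.8% for C/EBP beta alone. The C/EBP core was in 10.8%, 13.7% and 16%, and the composite in 0.380%, 0% and 1.75%.

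Motifs of other promoter factors were searched in the same windows. The ETS motif CCGGAAG was in 32.6% of the CREB1 windows, 21.9% of the C/EBP beta windows, 7 of the 14 shared windows and 11.7% of all windows (20.3% of those with at least 20 CpG). CCAAT was in 42.2%, 55.3%, 10 of 14 and 38.5%, with 33.8% of the windows with at least 20 CpG. GGGCGG, the Sp motif, was in 63.6%, 58.4%, 7 of 14 and 46.7%, with 81.4% of the windows with at least 20 CpG. GCATGCGC of NRF1 was in 5.61%, 7.31%, 1 of 14 and 3.54%, and TGANTCA of AP-1 in 5.35%, 5.02%, 0 of 14 and 7.04%. In the windows with at least 20 CpG these were 6.31% for NRF1 and 2.75% for AP-1. Against those windows, NRF1 was not clearly more frequent in the windows of either factor, and AP-1 was not less frequent. A match describes the letters of the window and is not a measured site.

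**Figure D5:**
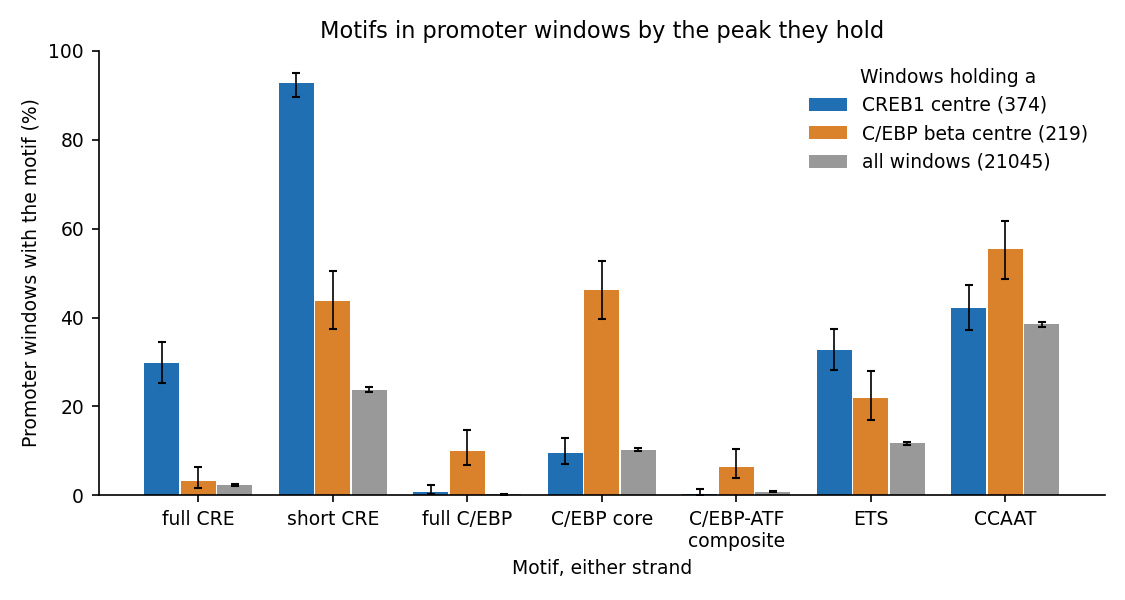
Share in percent of promoter windows of 300 bases that hold each motif on either strand (vertical axis, motifs along the horizontal axis) among windows with a CREB1 peak centre, windows with a C/EBP beta peak centre and all windows; bars are shares and lines are 95% Wilson intervals. The short CRE stands at 92.8% in CREB1 windows, and the C/EBP core at 46.1% in C/EBP beta windows against 9.63% in CREB1 windows.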

How the data were processed

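Peak lists were compared for CREB1 (4 samples) and C/EBP beta (2 samples) after dDAVP, with groups taken from the sample titles. BWA, SAMtools, MACS2, bedtools and mm10 are named in the submitters' processing notes, without versions. Each list is 1 set of positions; no source used here says how replicates were combined. The score in the C/EBP beta list was deposited without a scale, and its 2401 names are those of replicate 1, which carry MACS2 settings (bandwidth 300, duplicates 1, q 0.01), per the deposited names. It served only for ranks and filters inside that list. No reads or tracks were used, so depth is unknown.

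Positions are 1-based on mm10. Genes were the 21631 protein-coding genes on 20 chromosomes of the RefSeq table (GRCm38.p6), which has no strand or exons, so parts of genes could not be distinguished. Strand and starts came from RefSeq promoter windows of 17274 of these genes (79.9%). The 2 CREB1 peaks on unplaced contigs entered the overlaps and no gene count. Distance was taken between peak centre and nearer gene end. All 389 names in the 27 gene lists matched a symbol or synonym; some lists use name patterns. Python 3.11.15, numpy 2.4.6, pandas 2.3.3 and matplotlib 3.10.9 were used, and the overlap, distance and motif steps were tested on simulated data. The members and lists were chosen with earlier results of these data known.

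Named genes were those with overlapping peaks, the 10 shortest and 5 longest distances among other genes near both, the genes of the 10 widest CREB1 and 10 best-scoring C/EBP beta peaks near 1 factor alone, up to 6 per list and class by distance, and 12 vasopressin and cAMP genes. Further genes are named where they complete a count, and some that the rule takes are not reported here. Alternatives covered overlap, distance, score, peak width, list length and the choice of starts alone.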

Additional observations from a re-analysis of the deposited data

How the results depend on the processing

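No replicate could be left out. No paired analysis was possible because each list gives 1 set of peaks, with no values of single replicates. The 20 overlapping CREB1 peaks became 18 with 50% of the shorter peak shared, 16 with centres within 100 bp, and 20 without peaks under 100 bp. They became 12 with the upper 50% of C/EBP beta scores and 50 with CREB1 peaks of either treatment. Genes near both (72), CREB1 alone (505) and C/EBP beta alone (1012) depended on the distance. They were 21, 411 and 366 at 500 bp, 36, 421 and 506 at 1000 bp and 504, 1003 and 3588 at 50000 bp. With annotated starts in place of gene ends they were 45, 392 and 670, and 44 of the 45 genes were among the 72. With the upper 50% of C/EBP beta scores they were 42, 535 and 549, and with as many best-scoring C/EBP beta peaks as CREB1 peaks, 19, 558 and 212. With CREB1 peaks of either treatment they were 153, 947 and 931, an alternative chosen after seeing the data. Without peaks under 100 bp they were 72, 502 and 1010. The share of peaks at a gene end was 85.4% for CREB1 and 14.4% for C/EBP beta at 500 bp, 95.8% and 36.6% at 5000 bp, and 21.7% for the upper 50% of C/EBP beta scores at 1000 bp, with CREB1 the higher in each. Of the 969 listed genes, 69 were near CREB1 and 118 near C/EBP beta, which became 56 and 72 at 1000 bp, and 69 and 72 with the upper 50% of scores. The short CRE share for CREB1 alone rose from 67.9% to 76.5% in genes with a centre within 500 bp and to 92.5% in windows that hold a centre. For genes near both it went from 69.9% to 72% and 100%. The C/EBP core share for C/EBP beta alone went from 16% to 26.4% and 48.3%. The windows with a centre were added after seeing the data, and the cause of these changes was not tested. The median distance between centres over the 72 genes, 840 bp, was 886 bp over 50 pairs of peaks, also added later. Of 82 recounts of single lists and motifs, 44 stayed within 1.5 times the count, or within the interval, and 38 did not. Depth is unknown, and a longer C/EBP beta list makes every count of shared sites larger.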

Other observations

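Peaks were unevenly spread over the chromosomes for both factors. Chromosome 7 had 7 CREB1 and 62 C/EBP beta peaks for 2030 genes, or 0.345 and 3.05 per 100 genes, against 1.87 and 11.1 over all chromosomes. The vehicle lists were also low there, with 1.03 and 0.197 per 100 genes against 3.62 and 0.966. Chromosome X was lower in each list, with 0 CREB1 and 2.07 C/EBP beta peaks per 100 genes after dDAVP and 0 and 0.104 after vehicle. Chromosome 12 had 4.71 CREB1 and 22.5 C/EBP beta peaks per 100 genes. On chromosome 17 lay 13 of the 72 genes near both factors, 6 of them in the cluster of similar genes around Tcte3. On chromosome 7, as on chromosomes 13 and X, lay 0 of the 72.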
